A study of Saccharomyces cerevisiae BY4741 with 22 samples.

Results

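The last stretch of mature 18S rRNA was examined for RNA 3′ ends that lay upstream of the mature end, that is, for 18S rRNA molecules that lacked 1 to 17 of their last nucleotides. On the 35S precursor reference of the files, the mature end is position 2500, called 0 here, and the 17 positions described are those just before it, called -17 to -1. They were set as a range of positions, with earlier results of these data known. They are 17 of the 101 positions in the window of 50 nt on either side of the mature end. They are also 17 of the 6858 positions of the reference. The values come from the 18 libraries of 18S rRNA among the 22 libraries of the series. A 3′ end was read as a lasting drop of the read depth from a nucleotide to the next, and its level is given as a percentage of all ends in the window.

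The yeast Saccharomyces cerevisiae was used, in strains that place the genes for their own assembly factors or ribosomal protein under galactose-driven promoters and were grown in glucose medium, so that plasmid copies supplied the proteins. In 8 libraries the cells were Gal::Pno1; Gal::Dim1 with TEF::Pno1 and Cyc1::Dim1-E85A (called Pno1). In another 8 libraries the plasmid carried TEF::Pno1-KKKF in place of TEF::Pno1, again with Cyc1::Dim1-E85A (called Pno1-KKKF), a state the labels call a Rio1 bypass. The remaining 2 libraries were from Gal::Rps14; Gal::Dim1 cells with TEF::Rps14 and unmutated Cyc1::Dim1 (called Rps14 + Dim1), so that both the depleted protein and Dim1 differed from the other strains. Per Pno1 strain, 3 libraries came from 30 °C with a universal linker, 2 from 25 °C with that linker, and 3 from 25 °C with a linker that carries a unique molecular identifier (UMI). The Rps14 + Dim1 libraries were made at 25 °C with the UMI linker. Gel purification went with the universal linker and bead purification with the UMI linker, so the effects of linker and purification cannot be told apart. The labels call the libraries biological replicates and do not say what else separate cultures shared.

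In yeast, the 3′ end of 18S rRNA is made late, when the endonuclease Nob1 cuts the precursor in the cytoplasm. Pno1 binds next to that cleavage site in the immature small subunit, and the kinase Rio1 acts in the release of Nob1 and Pno1. Dim1 is a methyltransferase that dimethylates a pair of adjacent adenosines in the last helix of 18S rRNA, and Rps14 is a ribosomal protein that lies close to the 3′ end on the subunit platform. The stretch takes in the 3′ side of that helix and the single-stranded tail that runs from it to the cleavage site.

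Each library held between 2615352 and 4373659 ends in the window, and the most frequent end was the mature one in 18 of 18 libraries, with 95.2% to 99.3% of ends. Intervals from counting were narrow, reaching 0.0240 percentage points to either side of the truncated share at most (95% Wilson intervals). They treat each read as separate and leave out the spread between libraries. Where PCR made several reads from 1 molecule, they are too narrow even for the counting of molecules. Reads in universal-linker libraries began to be counted at -40 and those in UMI libraries at -61. This starting point also went with the linker, so its effect cannot be told apart from those of linker and purification.

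Truncated ends were not spread evenly but formed a sharp peak at -4, a broader group from -10 to -7 with its summit at -9, and a step at -1. Over the 18 libraries, position -4 held a median of 0.742% of ends, with a lowest value of 0.244% and a highest of 2.37%. The end at -1, a molecule 1 nucleotide short, held a median of 0.366% and ran from 0.272% to 0.460%. At -9 the median was 0.180%, with a range from 0.0464% to 0.908%. Position -4 was higher than both of its neighbours in 18 of 18 libraries, and so was -9. A smaller summit at -7 was present in 12 of 18 libraries. Position -4 was the most frequent truncated end in 14 libraries, and -1 was in the other 4, all of which had the UMI linker. Position -9 came after both of them in 16 libraries, and above -1 in the other 2, Pno1-KKKF replicates 4 and 5.

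**Figure D1:**
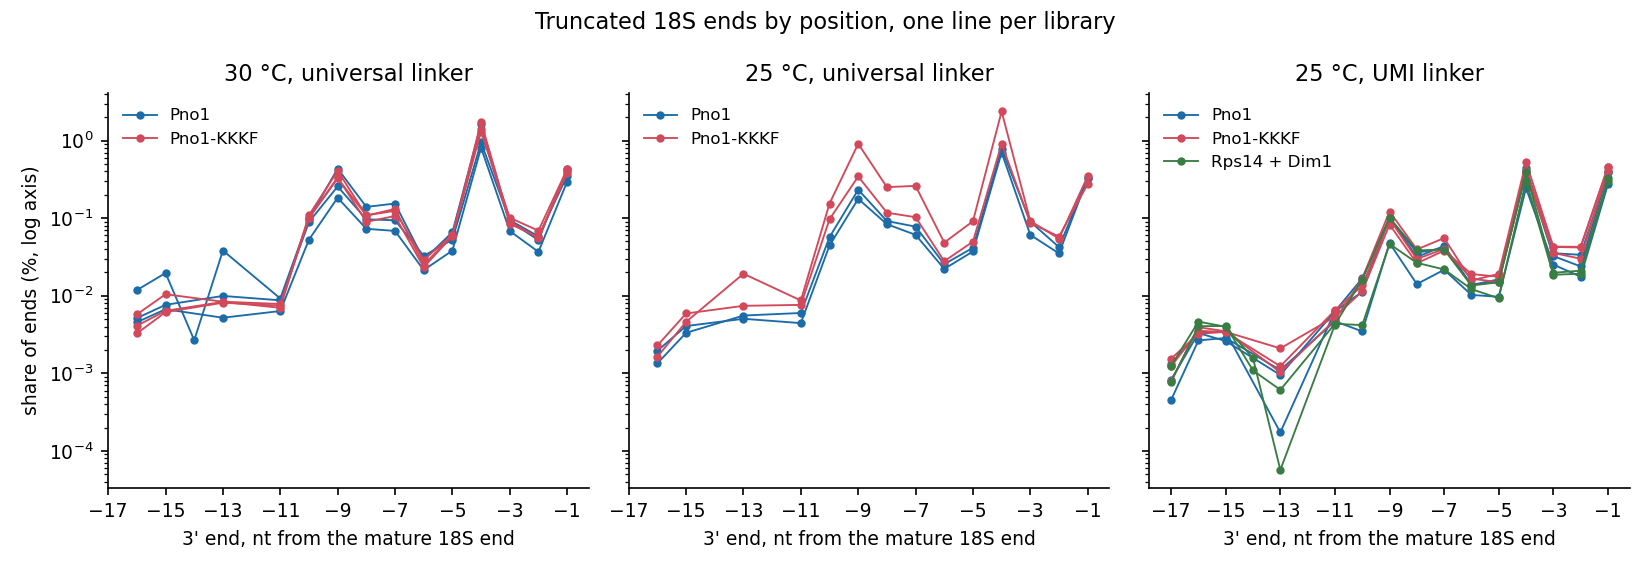
Share of ends in the window (percent, log axis) at each position from -17 to -1, with 1 line for each of the 18 libraries of 18S rRNA, coloured by strain and split by temperature and linker. Positions listed at 0 are not drawn, so lines pass over them. The summits at -9 and -4 are present in 18 of 18 libraries, and the group from -10 to -3 is lower with the UMI linker while -1 is not.

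Between the summits at -9 and -4, position -6 held 0.0102% to 0.0484% of ends and -5 held 0.00927% to 0.0911%. Positions -3 and -2 lay between 0.0186% and 0.101% and between 0.0176% and 0.0689%. Upstream of the group at -10 to -7 the levels fell away, and -17 to -11 together held 0.0118% to 0.0815% of ends. Position -11 held 0.00424% to 0.00920% of ends over all strains, temperatures and linkers.

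3 positions could not be read fully, because part of the reads skip a nucleotide there and an end that falls on it is counted 1 position further upstream. No library had an end listed at -12, where 0.0136% to 0.0537% of reads lacked the nucleotide, so that -13 holds the ends of both. At -14 the listed value was 0 in 15 of 18 libraries, and only Pno1 replicate 1 (0.00267%) and Rps14 + Dim1 replicates 1 (0.00109%) and 2 (0.00156%) had ends there. At -17 the 10 universal-linker libraries were listed at 0, with 0.000655% to 0.00128% of their reads skipping the nucleotide, while the 8 UMI libraries showed no skip and held 0.000453% to 0.00154% of ends. Differences at -17 and -14 are therefore given as levels with no fold. Just outside the stretch, -18 held at most 0.000342% of ends, and the first position beyond the mature end, +1, held 0.0176% to 0.0609%. In the 8 UMI libraries the read depth was highest at -17, so the end rule could list no ends at -18 there.

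Truncated ends of the other rRNA in the series were distributed differently. In the 4 libraries of 25S rRNA, made at 30 °C with the universal linker from large subunits of the Pno1 and Pno1-KKKF strains, the same distance from the 25S end held 2.24% to 2.80% of ends, close to the 1.67% to 3.20% of the 6 matched 18S libraries. Nearly all of the 25S ends lay at -1, which held 2.19% and 2.52% in Pno1 and 2.02% and 2.44% in Pno1-KKKF. At -4 the 25S libraries held 0.0338% and 0.0456% in Pno1 and 0.0220% and 0.0444% in Pno1-KKKF. The ratio of ends at -4 to ends at -1 was 3.36 ± 0.629 (SD, n = 6) in 18S and 0.0157 ± 0.00342 (SD, n = 4) in 25S. On the log2 scale the ratio was higher by 7.75 (SE 0.22) in 18S, and the groups did not overlap (two-sided exact permutation test within strain, p = 0.01, the smallest it can give, adjusted p = 0.03 over 6 ratio tests). Position -4 had been chosen as the most frequent truncated end in earlier results of these data. A higher ratio in 18S was thus partly built into the choice, and the test is no separate support for it.

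Truncated ends were fewer with the UMI linker and bead purification at most positions of the stretch, but not at -1. With the universal linker at 25 °C, -4 held 0.784% and 0.700% in Pno1 and 2.37% and 0.911% in Pno1-KKKF. With the UMI linker at the same temperature it held 0.244%, 0.400% and 0.442% in Pno1 and 0.387%, 0.406% and 0.529% in Pno1-KKKF. All 6 UMI libraries lay below all 4 universal ones, and the fitted level at -4 was 2.79-fold lower (log2 difference -1.48, SE 0.28, edgeR quasi-likelihood test with strain as a term, adjusted p = 0.000612). At -9 the universal libraries held 0.232% and 0.177% in Pno1 and 0.908% and 0.344% in Pno1-KKKF. The UMI libraries held 0.0477%, 0.101% and 0.100% in Pno1 and 0.0973%, 0.0827% and 0.122% in Pno1-KKKF at -9. The groups again did not overlap, and the fitted level was 4.01-fold lower (edgeR adjusted p = 0.000449).

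The end at -1 did not share that fall. Universal-linker libraries at 25 °C held 0.329% and 0.328% there in Pno1 and 0.347% and 0.274% in Pno1-KKKF, and UMI libraries 0.272%, 0.391% and 0.387% in Pno1 and 0.410%, 0.451% and 0.460% in Pno1-KKKF. The groups overlapped, and the log2 difference of 0.29 (SE 0.15, edgeR adjusted p = 0.0865) did not pass the threshold of 0.05. It passed without Pno1 replicate 6, the lowest UMI library, with a log2 difference of 0.39 and an adjusted p of 0.0134. With edgeR's TMM scaling it also passed (0.25, adjusted p = 0.0379).

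Of the 15 positions with enough ends to test, 13 passed in this comparison, against a background of 86.7% of the 45 positions tested in the whole window, so the share of positions called was that of the window. 11 of them were lower with the UMI linker and 2, -17 and -16, were higher. The call at -17 is not read as a change in truncation, because the skipped nucleotide can hide ends there in the universal-linker libraries. The median log2 difference was -1.22 over the 15 and 0.29 over all 45 positions. At -10 the UMI libraries held 0.00346% to 0.0167% and the universal ones 0.0444% to 0.154%, a 6.68-fold fall (log2 difference -2.74, SE 0.39, adjusted p = 0.000156). Position -8 was lower by 2.12 on the log2 scale, -5 by 1.79, -7 by 1.52, -3 by 1.22, -6 by 1.04 and -2 by 0.59, with edgeR adjusted p-values of 0.000156 to 0.0309. The fall at -13 (log2 difference -3.02, SE 0.44, edgeR adjusted p = 0.000156) depended on how skipped nucleotides were treated. Counting every positive drop as an end left a difference of -0.018 with an edgeR adjusted p of 0.94. That count also takes reads that skip -12 as ends at -13, so it cannot show whether the ends themselves differed. The call at -2 was lost on leaving out Pno1 replicate 4, Pno1 replicate 7, Pno1-KKKF replicate 5 or Pno1-KKKF replicate 6, with adjusted p-values of up to 0.0769. Position -15 was lower by 0.47 (edgeR adjusted p = 0.0428). Position -11 did not pass (log2 difference -0.21, edgeR adjusted p = 0.407). Position -16 was higher, at 0.00266% to 0.00392% with the UMI linker and 0.00135% to 0.00229% with the universal one (log2 difference 0.89, SE 0.21, edgeR adjusted p = 0.00237).

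**Figure D2:**
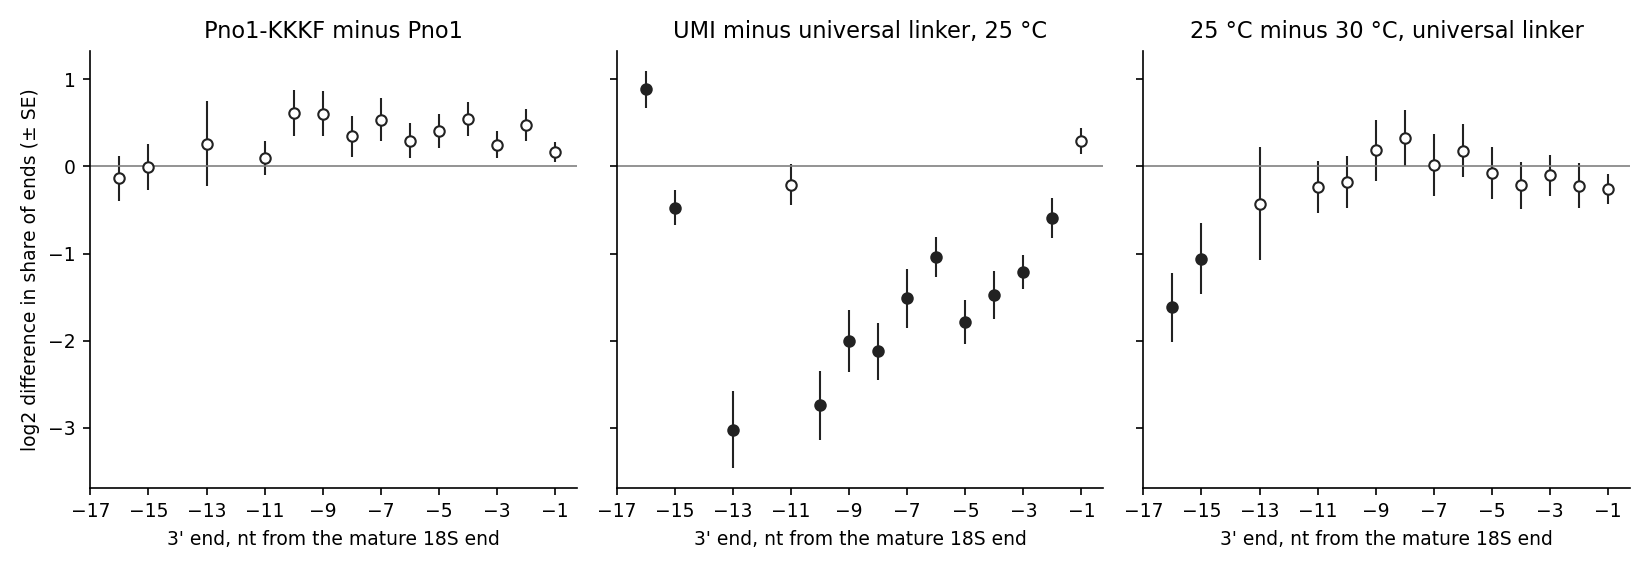
Log2 difference in the share of ends by position, with bars of 1 SE, for Pno1-KKKF minus Pno1 (16 libraries), UMI minus universal linker at 25 °C (10 libraries) and 25 °C minus 30 °C with the universal linker (10 libraries). Filled points passed an edgeR adjusted p of 0.05 and open points did not, and -17, -14 and -12 are left out because ends there are hidden by skipped nucleotides. The linker panel is lowest at -13, which also holds the ends hidden at -12, then at -10, and stands at 0.29 at -1.

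The ratio of ends at -4 to ends at -1 did not overlap between the linkers. It was 3.67 ± 2.18 (SD, n = 4) with the universal linker at 25 °C, ranging from 2.13 to 6.84, and 1.01 ± 0.115 (SD, n = 6) with the UMI linker, ranging from 0.898 to 1.15. The 3.26-fold lower ratio (log2 difference -1.71, SE 0.27) had a two-sided exact permutation p of 0.01 within strain, the smallest that 100 arrangements allow, and an adjusted p of 0.03. Leaving out any 1 library kept the difference between -1.88 and -1.41, although fewer arrangements then raised the adjusted p to between 0.05 and 0.075. The UMI libraries had 35.2% to 39.1% of their truncated ends at -4 and 32.7% to 40.1% at -1, counting Rps14 + Dim1. In the 10 universal-linker libraries these shares were 43.6% to 55.0% at -4 and 7.52% to 20.96% at -1. As a share of truncated ends, -10 to -7 held 22.6% to 34.1% with the universal linker and 12.7% to 19.6% with the UMI linker. The mean truncation was correspondingly 4.50 to 5.41 nt and 3.48 to 4.04 nt. Whether the linker difference was itself unlike in the strains was tested as an interaction, and 0 of the 15 positions passed (edgeR, 1 with an unadjusted p under 0.05), against a background of 0% of 45 positions called.

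**Figure D3:**
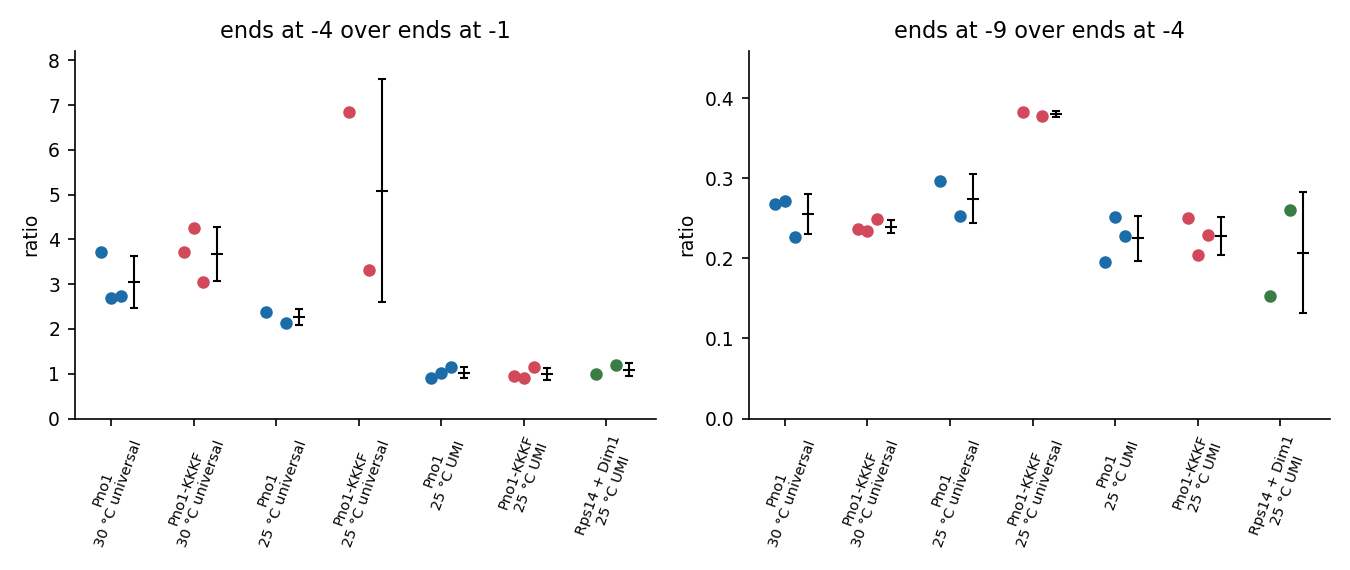
Ratio of ends at -4 to ends at -1 (left) and of ends at -9 to ends at -4 (right) in each of the 18 libraries of 18S rRNA, with the mean and SD of each group in black. The ratio on the left is 0.898 to 1.19 in the 8 UMI libraries and 2.13 to 6.84 in the 10 universal-linker libraries. On the right, the universal-linker libraries of Pno1-KKKF at 25 °C lie above the rest, at 0.383 and 0.378.

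The ratio between the inner summit at -9 and the summit at -4 varied less, from 0.154 to 0.297 in 16 of the 18 libraries. It was 0.383 and 0.378 in Pno1-KKKF replicates 4 and 5, the 2 universal-linker libraries of that strain at 25 °C. This pair was singled out after its values were seen, and the ratio was not tested.

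The comparison of the Pno1 strains asked whether the state the labels call a Rio1 bypass goes with more truncation, and it was made over 16 libraries with protocol as a term. At 30 °C, -4 held 1.62%, 0.944% and 0.807% in Pno1 and 1.41%, 1.74% and 1.31% in Pno1-KKKF, so that Pno1 replicate 1 lay among the Pno1-KKKF values. In the 25 °C groups, given above, both Pno1-KKKF universal-linker libraries were above both Pno1 ones, whereas the UMI groups overlapped. The log2 difference at -4 was 0.54 (SE 0.20, edgeR adjusted p = 0.289), 1.46-fold, and it did not pass. At -9 the 30 °C libraries held 0.435%, 0.256% and 0.183% in Pno1 and 0.335%, 0.407% and 0.325% in Pno1-KKKF, and the log2 difference over all protocols was 0.61 (SE 0.26, adjusted p = 0.308). The values at -2 differed by 0.47 (SE 0.18, adjusted p = 0.289) and those at -1 by 0.17 (SE 0.11, adjusted p = 0.436).

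None of the 15 positions tested passed between the strains (edgeR), against a background of 0% of 45 positions called, and 5 had an unadjusted p under 0.05. DESeq2 with size factors from all ends also called 0 (6 with an unadjusted p under 0.05). The difference was above 0 at 13 of the 15, with a median of 0.34 against 0.12 over all 45 positions. Summed over -17 to -1, truncated ends were 3.20%, 2.10% and 1.67% in Pno1 at 30 °C and 2.68%, 3.16% and 2.68% in Pno1-KKKF. For the universal linker at 25 °C the sums were 1.79% and 1.57% in Pno1 and 4.61% and 2.09% in Pno1-KKKF. With the UMI linker they were 0.678%, 1.09% and 1.13% in Pno1 and 1.09%, 1.15% and 1.36% in Pno1-KKKF. Within protocol the log2 odds of truncation were higher by 0.49 (SE 0.21) in Pno1-KKKF, 1.41-fold, as a description of the sum. Fitted in the 25 °C universal-linker libraries alone, 2 against 2, positions -9 (log2 difference 1.61) and -4 (1.15) passed, each with an edgeR adjusted p of 0.0118. The share of the whole window called was not taken for that fit. Pno1-KKKF replicate 4 held the highest value of the 18 libraries at both positions. A test of unlike strain differences between the 3 protocols passed at 0 of the 15 positions (edgeR, 0 with an unadjusted p under 0.05), against a background of 22.2% of 45 positions.

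**Figure D4:**
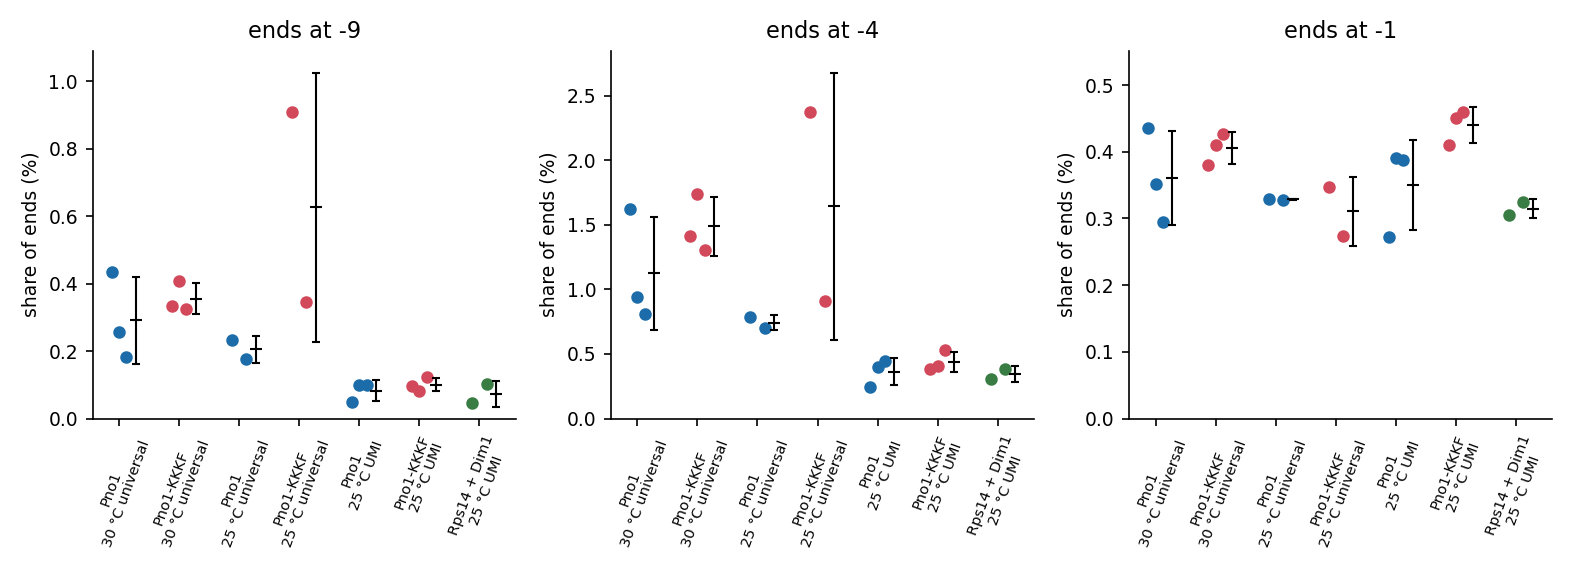
Share of ends (percent of all ends in the window) at -9, -4 and -1 in each library of 18S rRNA, by strain, temperature and linker, with the mean and SD of each group in black. At -9 and -4 the UMI libraries lie low and Pno1-KKKF replicate 4 is highest, at 0.908% and 2.37%. At -1 the groups span 0.272% to 0.460% and the linkers overlap.

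The ratio of -4 to -1 was 3.02 ± 2.04 (SD, n = 8) for the Pno1-KKKF libraries, against 2.09 ± 0.998 (SD, n = 8) for Pno1. Within protocol the log2 difference was 0.36 (SE 0.16), with a two-sided exact permutation p of 0.06 over 2400 arrangements and an adjusted p of 0.12. In the UMI libraries alone the difference was -0.034.

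Temperature was compared with the universal linker, 4 libraries at 25 °C against 6 at 30 °C. The summits at -4 and -9 did not pass, and neither did -1. The log2 difference was -0.22 (SE 0.27, edgeR adjusted p = 0.543) at -4 and 0.19 (SE 0.35, adjusted p = 0.672) at -9. At -1 it was -0.26 (SE 0.17, adjusted p = 0.227). Without Pno1-KKKF replicate 4 the value at -4 became -0.64 and passed (edgeR adjusted p = 0.00681). Under TMM and DESeq2's default scaling, which raised position 0 itself by 0.66 and 0.91 on the log2 scale, the difference at -4 turned to 0.48 and 0.66. That at -1 turned to 0.44 and 0.67.

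Only the far positions -16 and -15 passed, both lower at 25 °C, which is 2 of the 14 tested against a background of 48.8% of 41 positions. All 20 positions called in the window were lower at 25 °C. The median log2 difference was -1.10 over the 41 positions and -0.20 over the 14, so a fall at 25 °C was not particular to -16 and -15. At -16 the 25 °C libraries held 0.00135% and 0.00195% in Pno1 and 0.00164% and 0.00229% in Pno1-KKKF. The 6 libraries at 30 °C held 0.00326% to 0.0118%, so the groups did not overlap (log2 difference -1.62, SE 0.40, edgeR adjusted p = 0.00671). Under TMM and DESeq2's default scaling the difference at -16 was -0.81 and -0.58 and no longer passed (adjusted p = 0.0782 and 0.0586). At -15 the ranges were 0.00332% to 0.00590% and 0.00615% to 0.0196% (log2 difference -1.06, SE 0.41, adjusted p = 0.0495), and this call was lost on leaving out any of 6 of the 10 libraries, one at a time: Pno1 replicates 1, 2, 4 and 5 and Pno1-KKKF replicates 1 and 2. Position -15 also receives ends hidden at -14, and the part of that skip in its difference was not tested. Ends hidden at -17 are counted at -18 and not at -16. The ratio of -4 to -1 was 3.67 ± 2.18 (SD, n = 4) at 25 °C and 3.36 ± 0.629 (SD, n = 6) at 30 °C (exact permutation p = 0.97 and adjusted p = 0.97, for a log2 difference of -0.015 with SE 0.28).

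Rps14 + Dim1 was set against each Pno1 strain within the 25 °C UMI protocol, 2 libraries against 3, and both comparisons share the Rps14 + Dim1 libraries. Summed truncation was 0.781% and 0.992% in Rps14 + Dim1, inside the Pno1 range of 0.678% to 1.13% and below the Pno1-KKKF range of 1.09% to 1.36%. At -4 the Rps14 + Dim1 libraries held 0.302% and 0.387%, which overlapped Pno1 (log2 difference -0.07, SE 0.28, edgeR adjusted p = 0.849). Against Pno1-KKKF the difference at -4 was -0.35 (SE 0.17, adjusted p = 0.122). At -1 they held 0.305% and 0.325%, within the Pno1 values (log2 difference -0.15, SE 0.19, adjusted p = 0.582) and below the Pno1-KKKF ones (log2 difference -0.48, SE 0.08, adjusted p = 0.00267). Without Pno1 replicate 6, the difference from Pno1 at -1 was -0.30 with an adjusted p of 0.017.

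The Rps14 + Dim1 values were also low at -3 and -2. At -3 the Rps14 + Dim1 libraries held 0.0186% and 0.0198%, against 0.0252%, 0.0324% and 0.0353% in Pno1 and 0.0356%, 0.0430% and 0.0425% in Pno1-KKKF. Those values lay below all of the others, and the difference passed against Pno1-KKKF (log2 difference -1.07, SE 0.18, edgeR adjusted p = 0.00266) but not against Pno1 (log2 difference -0.69, SE 0.25, adjusted p = 0.0607). At -2 they held 0.0192% and 0.0210%, below the 0.0300%, 0.0426% and 0.0419% of Pno1-KKKF (log2 difference -0.92, SE 0.22, adjusted p = 0.0112) and inside the Pno1 range of 0.0176% to 0.0337%. Against Pno1-KKKF, 5 of 16 positions passed, with a background of 66% of 47 positions. They were -14, which was higher, and -13, -3, -2 and -1, which were lower. Against Pno1, only -14 passed of 16, with a background of 56.5% of 46 positions. In the whole window, 30 of the 31 positions called against Pno1-KKKF were lower, as were 25 of the 26 called against Pno1. The median log2 difference from Pno1-KKKF was -1.43 over all 47 positions and -0.43 over the 16. From Pno1 it was -1.31 over all 46 and -0.11 over the 16. The falls at -3 and -2 were thus smaller than the median fall of the window.

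Position -14 was listed at 0 in the 6 UMI libraries of the Pno1 strains and held 0.00109% and 0.00156% in Rps14 + Dim1. A skip of the nucleotide can hide ends there, as above, so that the calls at -14 and at -13 (log2 difference -2.17, SE 0.77, edgeR adjusted p = 0.0471 against Pno1-KKKF) are not read as changes in truncation. The calls at -3, -2 and -1 depended on scaling to the total of ends in the window. DESeq2's default scaling raised position 0 by 0.86 on the log2 scale in that comparison, and under it the differences were -0.21 at -3, -0.054 at -2 and 0.37 at -1, none past the threshold. Under TMM, -2 was at -0.32 and -1 at 0.11, neither past the threshold, while -3 still passed. Without Rps14 + Dim1 replicate 1 the call at -2 was lost (adjusted p = 0.0596).

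For Rps14 + Dim1 the ratio of -4 to -1 was 1.09 ± 0.143 (SD, n = 2). Pno1 had a UMI-linker ratio of 1.02 ± 0.121 (SD, n = 3), and Pno1-KKKF one of 0.999 ± 0.134 (SD, n = 3). Neither difference passed (log2 0.097, SE 0.17, and 0.13, SE 0.17, exact permutation p = 0.5 and adjusted p = 0.6 each), and with 10 arrangements no p under 0.1 was possible.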

How the data were processed

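The deposited values are whole-number counts of reads covering each nucleotide of the 35S reference (read depth), per the file headers. Alignment with Bowtie2 2.2.9 is named in the submitters' processing notes, beside cutadapt 3.5, Trim Galore 0.6.1, UMI-tools 1.1.2, bedtools 2.17.0 and SAMtools 1.1.0. Their settings, and whether reads with 1 UMI were merged, are not stated in the labels.

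An end was a lasting drop of depth, that is, of the running maximum taken from the 3′ side. Shares are over ends within 50 nt of position 0. Positions with at least 10 ends in at least 3 libraries (2 with Rps14 + Dim1) entered edgeR 4.0.16 (R 4.3.3, quasi-likelihood test, total ends as library size, Benjamini-Hochberg at 0.05 over the window). Ratios used 0.5 added to each count and two-sided exact permutation tests within protocol or strain, adjusted over 6 tests. DESeq2 1.42.0 was an alternative. Both tests recovered known changes on simulated data. For edgeR the planted changes were larger than the strain differences here, and the spread between libraries was a fixed setting. That recovery does not show whether changes of the size seen between the strains would be found. All 17 levels are described. Differences were named for -4, -1 and up to 10 called positions per direction by p (otherwise the 3 smallest p). The positions, lists and tests were chosen with earlier results of these data known. Equal replicate numbers were checked as pairs: 5 of 8 pairs had correlated deviations above 0.1 (range -0.347 to 0.444), so no pairing was assumed. Replicates 4 and 5 are the only 2 libraries of their strain and protocol. Their deviations mirror each other and both give 0.444, so these pairs are not separate checks. The nucleotide sequence of the stretch was not used here.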

Additional observations from a re-analysis of the deposited data

Results flagged for a closer look

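Of 37 sets of values, each 1 measure over the 8 libraries of Pno1 or of Pno1-KKKF, examined for a single library far from the rest, 10 had one by Dixon's test at 95%, where chance gives about 1 in 20. Pno1 replicate 1 (30 °C, universal linker) stood above the other 7 Pno1 libraries at 4 neighbouring positions. It held 0.0118% of ends at -16, 0.0196% at -15, 0.00267% at -14 and 0.0382% at -13. Pno1-KKKF replicate 4 (25 °C, universal linker) stood above its 7 counterparts at 0.0192% at -13, 0.908% at -9, 0.251% at -8, 0.26% at -7 and 0.0484% at -6. Pno1-KKKF replicate 1 (30 °C, universal linker) was high at -15, with 0.0104%. The groups span 3 protocols, so a protocol difference enters each comparison with the rest. With Pno1 replicate 1 and Pno1-KKKF replicate 4 both left out, an alternative chosen after seeing the data, 0 positions passed between the strains by edgeR (6 with an unadjusted p under 0.05). The temperature comparison then called 2 positions, among them -4 (-0.43, adjusted p = 0.00349) and no longer -15 (-0.70, adjusted p = 0.101). The share of the whole window called was not taken for these fits.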

How the results depend on the processing

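Values are log2 differences unless called counts. The share of the whole window called was taken for the main fits only. The counts below therefore stand without a background and are not read as results about the stretch. TMM and DESeq2's default scaling shifted the median of all positions by 0.75 and 0.92 in the temperature comparison, 0.56 and 0.62 for Rps14 + Dim1 against Pno1 and 0.57 and 0.81 against Pno1-KKKF, so calls there are relative to that shift. Under TMM and then DESeq2's default, signs turned for temperature at -4 (0.48, 0.66) and -1 (0.44, 0.67), for Rps14 + Dim1 against Pno1 at -4 (0.51, 0.61) and -1 (0.46, 0.52), and against Pno1-KKKF at -4 (0.23, 0.49) and -1 (0.11, 0.37). Counts of called positions for temperature were 4 under TMM, 11 under DESeq2's default, 1 with every positive drop counted, 1 with no filter and 0 in Pno1-KKKF alone. In that strain alone, the temperature difference was 0.14 at -4 and 0.39 for the ratio of -4 to -1. Counts against Rps14 + Dim1 were 4 (every positive drop) and 7 (DESeq2's default) for Pno1, and 8 (every positive drop) for Pno1-KKKF. The strain count was 2 at 25 °C with the universal linker alone, where -1 was at -0.081, and the strain ratio was -0.034 in UMI libraries alone. The linker count was 8 in Pno1 alone. The linker ratio was -1.15 in Pno1 and -2.26 in Pno1-KKKF alone, and the 18S against 25S ratio 7.49 and 8.01, where so few libraries cannot pass. With a replicate block the strain count stayed at 0 and the ratio at 0.36 (exact permutation p = 0.102, adjusted p = 0.203). Without 1 library at a time, ratios ran from 7.56 to 7.89 (18S against 25S) and from -1.88 to -1.41 (linker), none still below 0.05 because fewer arrangements remain (adjusted p 0.05 to 0.075). They ran from -0.29 to 0.17 (temperature), 0.21 to 0.42 (strain), -0.037 to 0.23 (Rps14 + Dim1 against Pno1) and -0.0030 to 0.26 (against Pno1-KKKF). Counts ran from 1 to 3 (temperature), 0 to 0 (strain), 11 to 13 (linker), 0 to 3 (Rps14 + Dim1 against Pno1; 0 without either Rps14 + Dim1 library, 3 without Pno1 replicate 6) and 3 to 8 (against Pno1-KKKF; 3 without Rps14 + Dim1 replicate 1, 8 without replicate 2). The difference at -4 against Pno1 ran from -0.29 to 0.097. Other causes were not tested.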
